A study of Mus musculus with 24 samples.

Results

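Molecular chaperones and heat shock proteins were compared in the striatum of mice that had drunk morphine or saccharin and then received an injection of morphine or saline. The set was chosen by gene symbol in the annotation of the array platform: symbols that begin with Hspa, Hspb, Hsp90, Hsph, Hspd, Hspe, Dnaja, Dnajb or Dnajc, and Bag or Cct followed by a digit. This gave 83 of the 19057 genes with a probe, each read by its brightest probe, and 71 of the 83 had a mean log2 intensity above 7.05, the 40th percentile of all probes, and were tested. The 12 members under that level were Cct6b, Cct8l1, Hspa13, Hspa14, Dnajb7, Dnajb14, Dnajc5g, Dnajc9, Hspb2, Hspb7, Hspb9 and Hspb11. Hsp90ab1 had no probe under that symbol and was not analysed here.

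All mice were C57BL/6J, aged 6 to 10 weeks, and each of the 24 arrays held RNA of the striatum, the forebrain region that carries most of the inhibitory medium spiny projection neurons. The 4 groups of 6 mice combined a chronic drink with an acute injection: saccharin or morphine taken by self-administration, then an intraperitoneal injection of saline at 10 ml/kg or of morphine at a dose of 20 mg/kg, with death 4 h later. Saccharin, a sweetener, was the control drink, and morphine is an opioid receptor agonist. The groups are written below as drink/injection, so that morphine/saline is a morphine drinker injected with saline. The tissue is bulk, so fewer cells of a type and less RNA per cell cannot be told apart.

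Chaperones bind unfolded or partly folded proteins and help them reach or regain their shape. HSP70 proteins do this in cycles of ATP hydrolysis that J-domain proteins start and that nucleotide exchange factors (HSP110 and BAG proteins) end, HSP90 finishes the folding of kinases and steroid receptors, small heat shock proteins hold clients out of aggregates, and the chaperonins enclose them in a chamber. Many of these genes are induced by the transcription factor HSF1 when unfolded proteins accumulate in the cytosol, and another group by the unfolded protein response of the endoplasmic reticulum (ER). In neurons Hspa8 and its J-domain partners also strip clathrin from synaptic vesicles.

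On 2 arrays of chip 2 the striatal marker genes went against the tissue label. On replicate 31 (morphine/morphine) and replicate 32 (morphine/saline) the mean of 8 medium spiny neuron genes was 9.60 and 9.62, against 12.36 to 13.49 on the other 22 arrays, and the mean of 4 cortical excitatory neuron genes was 12.35 and 12.13, against 8.64 to 11.87. The counts of members are given with and without these arrays.

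No chaperone passed the test in any of 8 comparisons. In limma's moderated test with Benjamini-Hochberg adjustment, 0 of 71 members had an adjusted p under 0.05 for the morphine injection in saccharin drinkers, in morphine drinkers or averaged over both drinks. Of all 13748 genes tested, 0.371%, 0.0655% and 0.691% did. For the drink, 0 of 71 members and 0% of all genes passed under saline, under morphine or averaged over injections, and the interaction of drink and injection also gave 0% of all genes. In the test for any difference among the 4 groups, 0 members and 0.386% of all genes passed.

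The members at an unadjusted p under 0.05 were counted beside the share of all genes. After the injection 5 members (7.04%) lay under it in saccharin drinkers, against 7.69% of all genes, 7 (9.86%) in morphine drinkers, against 6.36%, and 8 (11.3%) averaged over drinks, against 8.29%. For the drink there were 2 (2.82%) under saline, against 4.58%, 6 (8.45%) under morphine, against 5.50%, and 5 (7.04%) averaged, against 5.24%. The interaction gave 2 (2.82%), against 5.24%, and the test for any difference 5 (7.04%), against 6.87%. Without replicates 31 and 32 the injection counts were 5, 4 and 6, the drink counts 2, 3 and 3, and that of the interaction was 5. No member passed adjustment without them, and the smallest adjusted p of a member was 0.227, 0.595 and 0.21 for the injection, 0.903, 0.971 and 1 for the drink and 0.714 for the interaction (limma). Of the 71 members, 30 were higher and 41 lower after morphine averaged over drinks, and their median log2 difference was -0.018, beside -0.002 over all genes tested.

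The intervals give the sizes that the data still allow. For the injection averaged over drinks the member differences ran from -0.40 (Hspb3) to 0.29 (Hspb1) on the log2 scale. In 62 of 71 members (87.3%) the whole 95% confidence interval lay within 0.5 log2 units of no difference, as in 82.5% of all genes tested. The median standard error (SE) of a member was 0.0794. The plot of the responses shows each class centred near 0, with the wide intervals on dim or variable probes.

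**Figure D1:**
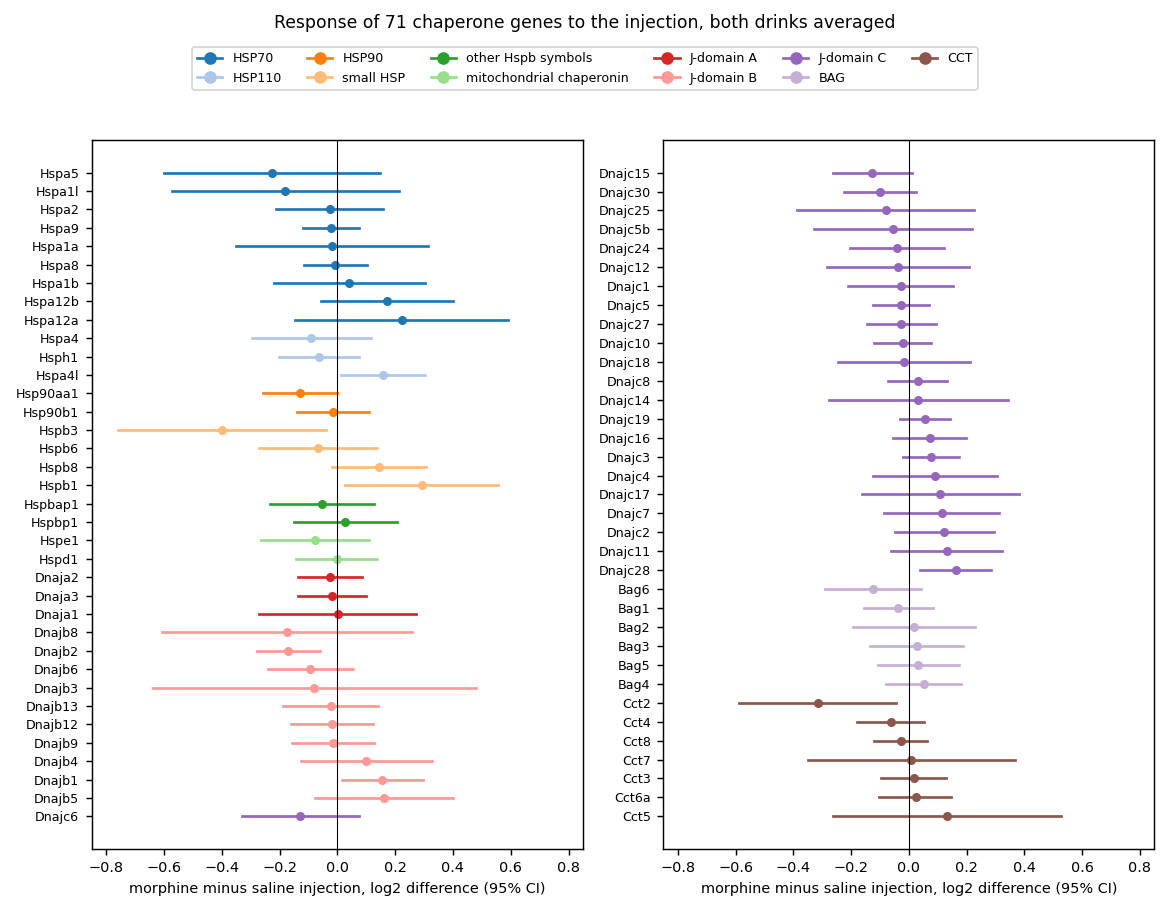
Log2 difference of morphine minus saline injection, averaged over both drinks, for the 71 tested chaperone genes (points) with 95% confidence intervals (bars), ordered within class and coloured by class. The differences run from -0.40 for Hspb3 to 0.29 for Hspb1, and no gene passed the adjusted test.

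The HSP70 class had 9 tested members, of which 3 were higher and 6 lower after the injection averaged over drinks, with a median of -0.02. Hspa8, the constitutive HSP70 that uncoats clathrin vesicles, ranged from 15.48 to 15.74 (median 15.57) in saccharin/saline, from 15.36 to 15.69 (median 15.62) in saccharin/morphine, from 15.34 to 15.69 (median 15.62) in morphine/saline and from 15.48 to 15.71 (median 15.53) in morphine/morphine. These are log2 intensities of 6 mice each, and the 4 ranges overlapped almost fully. Its injection response averaged over drinks was -0.01 (SE 0.0526, 95% interval -0.12 to 0.10, adjusted p = 0.988, limma).

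Hspa1a, the stress-inducible HSP70, varied far more between mice. It lay between 8.36 and 9.22 (median 8.97) in saccharin/saline, 8.47 and 9.51 (median 9.19) in saccharin/morphine, 8.93 and 9.58 (median 9.45) in morphine/saline and 8.39 and 9.72 (median 9.22) in morphine/morphine. The lowest mice of 3 groups stood near 8.4, and morphine/saline had none below 8.9. The response to the injection was 0.16 (SE 0.224) in saccharin drinkers and -0.19 (SE 0.224) in morphine drinkers, and the interaction of -0.35 had an interval of -1.01 to 0.32 (adjusted p = 0.987, limma). Hspa1b, its near-identical neighbour, gave group means of 7.37, 7.34, 7.25 and 7.35 in the same order, and the probes of such close copies may take signal from each other.

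Hspa9, the mitochondrial HSP70, stayed within group means of 13.85 to 13.89 and had a residual SD of 0.0829 between mice of a group, among the lowest of the set. Hspa5, the ER HSP70 known as BiP, was read by a probe with a mean of 7.22, close to the level needed for testing, and its group means were 7.35, 6.94, 7.32 and 7.28. Its averaged response was -0.23 (SE 0.178) with all mice and -0.12 without replicates 31 and 32. It was -0.02 without chip 2, -0.08 without chip 3 and -0.02 with array weights. Hspa12a, a distant HSP70 relative, had the highest positive response of the class at 0.22 (SE 0.176), with 0.12 without those arrays and 0.09 with array weights.

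The 3 HSP110 members are nucleotide exchange factors for HSP70. Hsph1 and Hspa4 had averaged responses of -0.06 (SE 0.066) and -0.09 (SE 0.0974). Hspa4l lay between 9.43 and 9.99 (median 9.76) in saccharin/saline and between 9.75 and 10.12 (median 9.85) in saccharin/morphine, and between 9.51 and 10.00 (median 9.71) and 9.66 and 10.17 (median 9.82) in the 2 morphine-drinking groups. The ranges overlapped in both drinks, and the averaged response was 0.16 (SE 0.0693, adjusted p = 0.562, limma). A further Hspa4l probe gave -0.05 (SE 0.118), the opposite sign.

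Of the HSP90 class, Hsp90aa1 encodes the inducible cytosolic form and Hsp90b1 the ER form, GRP94. Hsp90aa1 lay between 11.25 and 12.12 (median 11.75) in saccharin/saline, 11.14 and 11.94 (median 11.52) in saccharin/morphine, 11.36 and 12.07 (median 11.88) in morphine/saline and 11.37 and 12.12 (median 11.73) in morphine/morphine. The ranges overlapped, although the saccharin/morphine mouse was the lower of the pair on each of 6 chips. The difference in saccharin drinkers was -0.20 (SE 0.0853, adjusted p = 0.610, limma), and that in morphine drinkers -0.06 (SE 0.0853). Hsp90aa1 also stood among the smallest p of the drink comparison under the morphine injection, where morphine drinkers differed from saccharin drinkers by 0.23 (SE 0.0853, adjusted p = 0.868). Its further probe, with a mean of 8.54, gave larger differences of -0.58 (SE 0.219) for the injection in saccharin drinkers and 0.50 (SE 0.219) for the drink under morphine. It gave 0.06 for the injection in morphine drinkers and 0.65 (SE 0.31) for the interaction. With every probe tested on its own over 22499 probes, a fit added after seeing the data, these differences had adjusted p of 0.57, 0.865, 0.995 and 0.891. The group means of Hsp90b1 were 13.44, 13.40, 13.45 and 13.46.

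The small heat shock proteins held both ends of the range of responses. Hspb1, or HSP25, an HSF1 target that binds aggregating proteins and actin, lay between 7.55 and 8.62 (median 8.05) in saccharin/saline and 7.71 and 9.03 (median 8.47) in saccharin/morphine, against 7.15 to 8.47 (median 8.12) and 7.70 to 8.82 (median 8.15) in morphine drinkers. The injected mice reached higher, but the ranges overlapped in both drinks. The averaged response was 0.29 (SE 0.127, 95% interval 0.03 to 0.56, adjusted p = 0.544, limma), and the second Hspb1 probe gave -0.03 (SE 0.235).

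Hspb3, a small heat shock protein described in muscle, had the most negative averaged response, -0.40 (SE 0.171, adjusted p = 0.531), with the same value in each drink. Its medians were 8.21 and 7.63 for saline and morphine in saccharin drinkers and 8.28 and 7.92 in morphine drinkers. Hspb8, which works with Bag3 in the autophagy of clients, was higher in the morphine/morphine mouse on all 6 chips, by 0.26 (SE 0.109, adjusted p = 0.746, limma), and a further probe gave an averaged response of 0.24 beside 0.14 for the probe used. In saccharin drinkers the Hspb8 difference was 0.03 (SE 0.109).

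**Figure D2:**
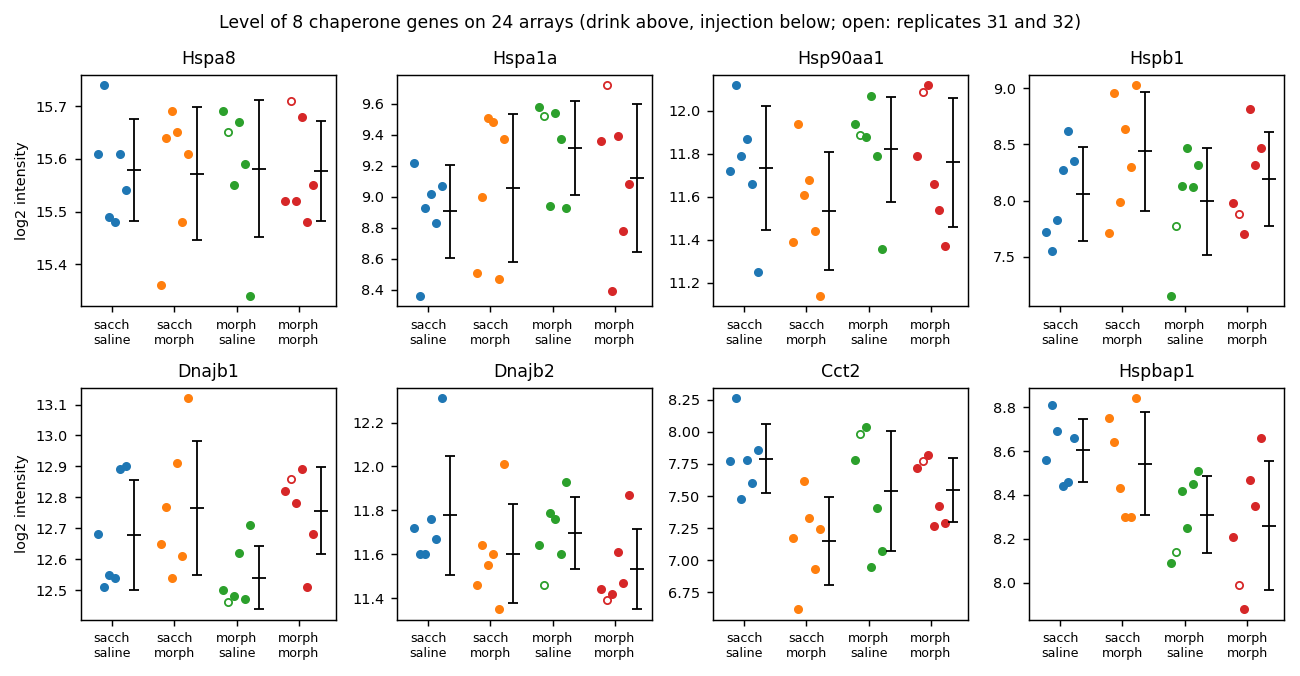
Log2 intensity of 8 chaperone genes in each of 24 mice (points) by group, with mean and SD (bars, n = 6) beside the points, the drink on the upper and the injection on the lower label line, and replicates 31 and 32 as open circles. The groups overlap for each gene, and each panel has its own axis range.

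J-domain proteins bring clients to HSP70 and start its ATP hydrolysis. In class A, 1 of 3 tested members was higher and 2 lower after the averaged injection, from -0.03 for Dnaja2 to 0.00 for Dnaja1, and in class B 3 of 10 were higher and 7 lower, from -0.18 for the noisy Dnajb8 to 0.16 for Dnajb5. Neither extreme kept its sign: Dnajb8 gave 0.05 without chip 1, and Dnajb5 gave -0.25 (SE 0.158) and -0.00 (SE 0.127) on its further probes and -0.03 with its probes averaged. Dnajb2, a neuronal member of class B, gave the smallest p of any chaperone for the averaged response. It ranged from 11.60 to 12.31 (median 11.70) in saccharin/saline and 11.35 to 12.01 (median 11.57) in saccharin/morphine, and from 11.46 to 11.93 (median 11.70) and 11.39 to 11.87 (median 11.46) in morphine drinkers. The ranges overlapped, yet the mean of the injected mice was lower on each of 6 chips. The averaged difference was -0.17 (SE 0.0516, 95% interval -0.28 to -0.06, unadjusted p = 0.00404, adjusted p = 0.220, limma).

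Dnajb1, the HSF1-induced partner of HSP70 known as HSP40, lay between 12.51 and 12.90 (median 12.62) in saccharin/saline, 12.54 and 13.12 (median 12.71) in saccharin/morphine, 12.46 and 12.71 (median 12.49) in morphine/saline and 12.51 and 12.89 (median 12.80) in morphine/morphine. In morphine drinkers 5 of 6 chips had the morphine-injected mouse higher, although the ranges overlapped. The differences were 0.22 (SE 0.0946, adjusted p = 0.750, limma) in morphine drinkers and 0.09 (SE 0.0946) in saccharin drinkers. Dnajb9, an ER member of the unfolded protein response, had an averaged difference of -0.02 (SE 0.0679).

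Among the 23 tested members of class C, 11 were higher and 12 lower after the averaged injection, from -0.13 to 0.16. Dnajc28 stood highest, with medians of 9.95 and 10.08 in saccharin drinkers and 10.04 and 10.21 in morphine drinkers for saline and morphine. Its mean was higher on all 6 chips, by 0.16 (SE 0.0593, adjusted p = 0.420, limma). Dnajc6, or auxilin, which recruits Hspa8 to clathrin coats, stood lowest at -0.13 (SE 0.0969). Dnajc5, the cysteine string protein of synaptic vesicles, had group means of 13.68 to 13.73 and a difference of -0.03 (SE 0.0459). Dnajc3, an ER inhibitor of the kinase PERK, gave 0.08 (SE 0.0465). Dnajc30, a mitochondrial member, differed by -0.19 (SE 0.0831, adjusted p = 0.749) in morphine drinkers and by -0.01 (SE 0.0831) in saccharin drinkers.

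The chaperonins form 2 kinds of folding chamber. CCT, in the cytosol, folds actin and tubulin. Of the 7 tested genes with a Cct symbol, 4 were higher and 3 lower after the averaged injection, with a median of 0.01. Tcp1, which also encodes a ring subunit, falls outside the symbol rule and is not in this count. Its group means were 12.78 in saccharin/saline, 12.74 in saccharin/morphine, 12.84 in morphine/saline and 12.84 in morphine/morphine. Cct2 had the smallest p of any chaperone in saccharin drinkers, where it ranged from 7.48 to 8.26 (median 7.77) with saline and from 6.62 to 7.62 (median 7.20) with morphine. The ranges met only between 7.48 and 7.62, and 5 of 6 chips had the injected mouse lower. In morphine drinkers the ranges were 6.95 to 8.04 (median 7.59) and 7.27 to 7.82 (median 7.57).

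The Cct2 difference was -0.64 (SE 0.184, 95% interval -1.02 to -0.25, unadjusted p = 0.00276, adjusted p = 0.274, limma) in saccharin drinkers and 0.01 (SE 0.184) in morphine drinkers. The interaction of 0.64 (SE 0.260) did not pass (adjusted p = 0.939). On the intensities without background correction the difference in saccharin drinkers was -0.40. The Cct2 probe is a dim one, with a mean of 7.51, while the probes of Cct8, Cct3, Cct4 and Cct6a had means above 12. Cct8 had a residual SD of 0.0742 and an averaged injection difference of -0.03 (SE 0.0438).

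Hspd1 (HSP60) and Hspe1 (HSP10) form the mitochondrial chaperonin. In saccharin drinkers Hspe1 went from 9.71 to 11.04 (median 10.74) with saline and from 10.03 to 10.75 (median 10.45) with morphine, and in morphine drinkers from 10.16 to 10.91 (median 10.72) and from 10.03 to 10.89 (median 10.81). The ranges overlapped in every pair of groups. Its injection difference was -0.24 (SE 0.125, adjusted p = 0.692, limma) and 0.09 (SE 0.125) in the respective drinks. Hspd1 gave -0.11 (SE 0.0936) and 0.10 (SE 0.0936), and its interaction of 0.22 and that of Hspe1, 0.33, had adjusted p of 0.953 and 0.945.

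A further Hspd1 probe, with a mean log2 intensity of 10.15, gave larger differences. The injection difference there was -0.17 (SE 0.136) in saccharin drinkers, 0.54 (SE 0.136, unadjusted p = 0.000899, limma) in morphine drinkers and 0.18 (SE 0.0964) averaged. The drink difference was -0.46 (SE 0.136) under saline and 0.25 (SE 0.136) under morphine, and the interaction 0.72 (SE 0.193, unadjusted p = 0.00162). None of these passed when every probe was tested on its own, with adjusted p of 0.834, 0.282, 0.717, 0.963, 0.865 and 0.871 in that order. The averaged injection response on the probe used was -0.00, against 0.18 here.

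Hspd1 and Hspe1 lie head to head on mouse chromosome 1 with starts 216 bases apart, so the stretch between them is upstream of both. It is shown because both genes share it and it holds a heat shock element, the binding sequence of HSF1. The element was searched as GAANNTTCNNGAA on both strands in windows from 250 bases before to 50 after each annotated start, from RefSeq on build GRCm38.p6. The first line gives the stretch chr1:55088034-55088101 on the strand of Hspe1, where the matches lie at -89 to -72 from its start. The second gives the same bases on the strand of Hspd1, and the 2 overlapping matches are in capitals.
Hspe1: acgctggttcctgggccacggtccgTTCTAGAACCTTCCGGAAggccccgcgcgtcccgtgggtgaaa
Hspd1: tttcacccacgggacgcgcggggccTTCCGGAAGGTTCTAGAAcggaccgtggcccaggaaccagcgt
Another annotated Hspd1 start lies 95 bases inside Hspe1.

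The element was found in 0.603% of all 32851 windows and, among 88 windows of 69 members, in 6 windows of 4 genes: Hspd1, Hspe1, Hsph1 and Dnajb6. These 6 windows are not separate sites. Hspd1 and Hspe1 share the same bases, and Hsph1 and Dnajb6 were each counted in overlapping windows that hold 1 site. In Hsph1 the match lies after the start, at 15 to 27 or 36 to 48 bases depending on the annotated start. The ER stress response element, CCAAT and CCACG with 9 bases between them, was in 0.119% of all windows and in 3 members, Hspa5, Hsp90b1 and Dnajc3. Hsp90b1 held a further match in the reverse orientation at chr10:86705508-86705576, -107 to -89 from its start. The injection difference of Hsp90b1 averaged over drinks was -0.02 (SE 0.0592), and those of Hspa5 and Dnajc3 were -0.23 and 0.08. The stretches of these 3 ER genes are shown with the element in capitals on the strand of each gene, and both matches of Hsp90b1 have a line, the reverse one second. Apart from that one they lie at chr2:34772000-34772068, chr10:86705613-86705681 and chr14:118937802-118937870.
Hspa5: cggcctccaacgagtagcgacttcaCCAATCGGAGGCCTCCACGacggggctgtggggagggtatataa
Hsp90b1: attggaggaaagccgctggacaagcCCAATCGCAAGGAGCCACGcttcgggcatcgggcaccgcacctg
Hsp90b1, reverse match: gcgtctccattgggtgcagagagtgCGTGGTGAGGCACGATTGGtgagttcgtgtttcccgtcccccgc
Dnajc3: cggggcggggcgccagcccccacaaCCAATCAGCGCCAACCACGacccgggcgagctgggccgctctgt
The glucocorticoid response element, searched as GNACANNNTGTNC, was in 0.475% of all windows and in 0 of the 88 member windows. A match describes letters in the window, not binding. The search took exact letters, so a gene without a match may hold an element that differs or lies outside the window. Members without a window were not searched.

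BAG proteins release clients from HSP70, and 4 of the 6 were higher and 2 lower after the averaged injection, from -0.12 for Bag6 to 0.05 for Bag4. Without replicates 31 and 32 the Bag4 value was 0.02, and with array weights that of Bag6 was -0.06. Bag3, an HSF1 target, was tightly grouped in saccharin/saline, between 10.78 and 10.88, and wider in the other groups, at 10.44 to 11.17, 10.38 to 10.99 and 10.61 to 10.97. Its interaction of 0.30 (SE 0.153) had an adjusted p of 0.943. Bag2, an inhibitor of the ubiquitin ligase CHIP, was higher in morphine than in saccharin drinkers under the morphine injection, by 0.34 (SE 0.142, adjusted p = 0.868, limma). Its ranges, 7.37 to 8.19 (median 7.64) against 7.02 to 7.81 (median 7.33), overlapped.

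For the drink itself, the smallest p belonged to Hspbap1, named for binding Hspb1. It lay between 8.44 and 8.81 (median 8.61) in saccharin/saline and 8.09 and 8.51 (median 8.34) in morphine/saline, and between 8.30 and 8.84 (median 8.54) and 7.88 and 8.66 (median 8.28) in mice injected with morphine. The morphine-drinking mouse was lower on all 6 chips under saline, with ranges that met between 8.44 and 8.51. The difference averaged over injections was -0.29 (SE 0.0864, unadjusted p = 0.00375, adjusted p = 0.903, limma), -0.21 without replicates 31 and 32, -0.15 with its probes averaged and -0.01 (SE 0.0801) on the further Hspbap1 probe.

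Hspa12a differed between drinks by 0.60 (SE 0.248, adjusted p = 0.868, limma) under the morphine injection, and by 0.36 without replicates 31 and 32. The highest morphine/morphine mouse, at 8.75, was replicate 31, and the highest saccharin/morphine mouse stood at 7.87. Dnajc24, which takes part in making diphthamide, differed by -0.25 (SE 0.109) under saline and had an interaction of 0.35 (SE 0.154, adjusted p = 0.939).

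Grouped by location and inducibility, each list also had 0 members past the test. The heat-inducible list had 14 tested members, among them Hspa8, called constitutive above. After the averaged injection 8 were higher and 6 lower, with a median of 0.02. At an unadjusted p under 0.05 there were 4 (28.6%): Dnajb1, Hspa4l and Hspb1 higher, Hsp90aa1 lower. All genes gave 8.29% there, and in the other comparisons the list had between 0 and 2 (14.3%): 2 for the injection in each drink, 0 for the drink under saline, 2 under morphine, 1 averaged, 0 for the interaction and 1 for any difference. On their further probes Hspa4l and Hspb1 had the opposite sign for the averaged injection, and these genes also varied together from mouse to mouse. Of 7 ER members 1 was higher and 6 lower (median -0.02), and of 7 listed mitochondrial members 2 were higher and 5 lower (median -0.02). All 5 tested members of a list named synaptic and clathrin were lower (median -0.09, from -0.17 for Dnajb2 to -0.01 for Hspa8). Of these only Hspa8, Dnajc5 and Dnajc6 are described above as acting on vesicles or clathrin, and they stood at -0.01, -0.03 and -0.13. Of all genes 6993 of 13748 were lower. Dnajb6, of the synaptic list, stood at -0.09 on the probe used and at 0.13 (SE 0.0609) and -0.02 (SE 0.0601) on its further probes. In the interaction all 7 listed mitochondrial members were on the positive side (median 0.10). The list left out Dnajc30, called mitochondrial above, whose injection difference was lower in morphine drinkers (-0.19) than in saccharin drinkers. Its interaction was therefore on the negative side. Over the 71 members 44 were positive and 27 negative (median 0.05, beside 0.00 for all genes). Of all genes 6944 of 13748 were positive. Without replicates 31 and 32 the median was 0.035 for the members and 0.009 for all genes. Under scaling to a common median the median interaction of all genes moved to 0.10 and that of the members to 0.18.

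Genes around the chaperone system that are not members were read from lists of known partners. A list of HSP90 co-chaperones, steroid receptor complex genes and a glucocorticoid target had 12 genes. With the injection 2 of them (16.7%) rose in both drinks and 10 did not pass. Of all genes 0.371% passed in saccharin drinkers and 0.0655% in morphine drinkers. Of the 2 only Fkbp5 is a co-chaperone, and the lists were chosen with earlier results of these data known. Fkbp5, an HSP90 co-chaperone and glucocorticoid target, lay between 9.62 and 10.26 (median 9.91) in saccharin/saline and between 10.67 and 11.26 (median 10.78) in saccharin/morphine, with no overlap. In morphine drinkers it lay between 9.81 and 10.07 (median 9.90) with saline and 10.39 and 11.01 (median 10.61) with morphine, again with no overlap. It rose by 0.86 averaged over drinks (SE 0.0605, adjusted p = 1.65e-07, limma), and Tsc22d3, or GILZ, another glucocorticoid target, rose by 1.07 (SE 0.0628, adjusted p = 1.28e-08). The glucocorticoid receptor gene Nr3c1 gave 0.00 (SE 0.124). Its probe was dim, with group means from 6.985 to 7.214, close to the level needed for testing.

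Of 13 listed heat shock factor genes and other HSF1 targets, 10 had a usable probe. Hsf1 itself had none and was not read. For the injection averaged over drinks 0 of the 10 passed, 2 were higher and 8 lower. Cacybp had the smallest p, at -0.32 (SE 0.0957, adjusted p = 0.206, limma). Of 15 genes of the unfolded protein response, 0 passed, with Herpud1 at 0.16 (SE 0.0515, adjusted p = 0.259). At an unadjusted p under 0.05 there were 4 (26.7%) in morphine drinkers, against 6.36% of all genes. In saccharin drinkers there were 0, against 7.69%, and averaged over drinks 2 (13.3%), against 8.29%. Trib3 lay farthest from 0, at -0.63 in morphine drinkers, 0.66 for the drink under saline and -0.58 for the interaction. The 8 mitochondrial chaperone partners and the 9 prefoldin and CCT partners had 0 past the test in each case, with 5 and 1 on the positive side. The latter list also held Tcp1, a subunit of the ring.

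The members differed widely in how much they varied between mice of a group. The residual SD, after group and chip, was lowest in Dnajc19, of the mitochondrial import motor (0.0667), Cct8 (0.0742), Dnajc5 (0.0828) and Hspa9 (0.0829). It was highest in Dnajb3 (0.704), Dnajb8 (0.542), Cct5 (0.492) and Hspa1l (0.491). The median was 0.192 for the 71 members and 0.252 for all genes tested, and 14 members (19.7%) were among the quietest 10% of all genes. The members were also brighter, with a median log2 intensity of 10.52 beside 9.27, and the part of brightness in this was not tested.

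Of the pairs within the heat-inducible list, which also holds the constitutive Hspa8, 1 varied together from mouse to mouse past adjustment. Each of the 14 genes was centred within its chip, and the 91 pairs were compared across 24 mice by permutation of mice within chips (100000 resamples, two-sided), a comparison chosen after seeing the data. Hspb1 and Hspa4l gave the closest pair: Pearson's r was 0.729 (p = 8e-05, adjusted over 91 pairs 0.00728) and Spearman's rho 0.712 (p = 0.00052, adjusted 0.0473). Leaving out the 2 mice farthest from the median of Hspb1 gave 0.754, leaving out replicates 31 and 32 gave 0.803, and removing group as well as chip gave 0.678. Within chips r was positive on 5 of 6. Without centring it was 0.236, so the relation rests on differences within chips, and the further probes of Hspb1 and Hspa4l, whose injection differences had the opposite sign, were not part of it.

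Of the 91 pairs 65 (71.4%) had a positive r, beside 50.9% of all 94496878 pairs of tested genes and 53.2% of the 2485 pairs of members. An r as high as that of Hspb1 and Hspa4l was found in 0.228% of all gene pairs and in 0.0805% of the member pairs. The 91 pairs share genes and mice, so their count has no test. The head-to-head genes Hspd1 and Hspe1 had an r of 0.685 (p = 0.00638, adjusted 0.0829) and a rho of 0.617 (p = 0.00723, adjusted 0.129) by the same permutation, 0.537 without the 2 farthest mice and 0.855 without centring. Hspa1a and Hspa8 had an r of 0.567 (p = 0.00441, adjusted 0.0829) and a rho of 0.561 (p = 0.00811, adjusted 0.129). Neither pair passed, and r was positive on 4 and 5 of 6 chips.

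**Figure D3:**
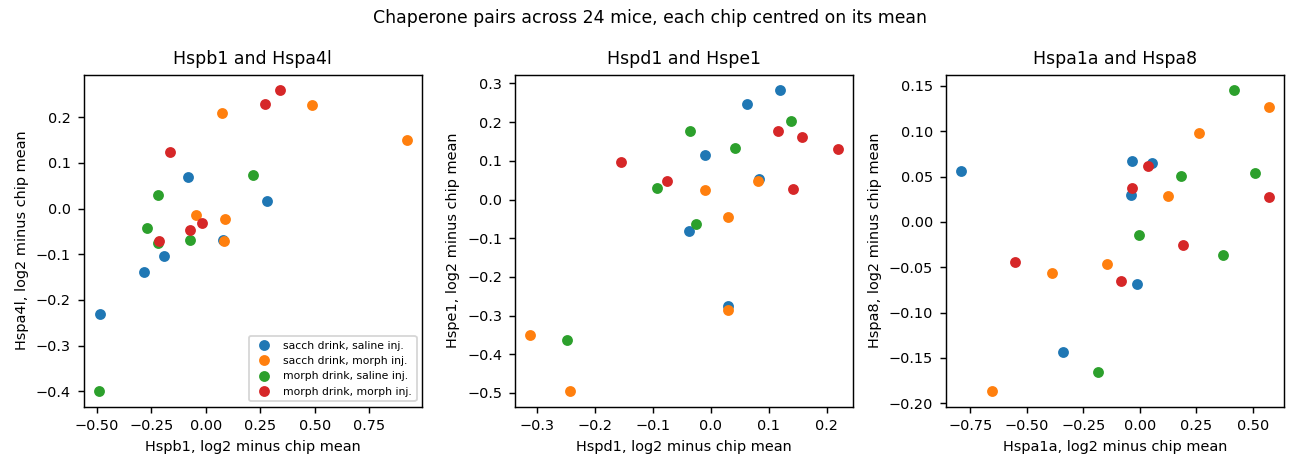
Chip-centred log2 intensity of 3 pairs of chaperone genes in 24 mice (points, coloured by group), each axis being the log2 intensity minus the mean of the mouse's chip. The points of Hspb1 and Hspa4l run from lower left to upper right (r = 0.729), and the 3 mice lowest in Hspd1 are also the 3 lowest in Hspe1.

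Several chaperones stood apart on chip 6. Each of the 6 chips held 1 mouse of each group, so the chip term in the fit kept this out of the comparisons. On chip 6 the 4 arrays lay outside the range of the other 20 for 10 of 71 members (14.1%), against 4.45% of all genes, and on chips 1 to 5 this was so for 0 members. Raw median intensity was also lowest there, 164 to 177 beside 164 to 543 over all arrays, and its part in the result was not tested.

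The 6 members that were lower on chip 6 included both HSP90 genes and Hspd1. Hspd1 lay between 12.03 and 12.19 there and between 12.35 and 12.88 elsewhere, Hsp90b1 between 12.79 and 13.19 against 13.32 to 13.69, and Hsp90aa1 between 11.14 and 11.37 against 11.39 to 12.12. Cct8, Dnaja2 and Dnajc19 were the other 3. Dnajb2 was among the 4 that were higher, at 11.87 to 12.31 against 11.35 to 11.79, with Bag6, Hspa1b and Hspb6. The plot by chip shows the same step in Hspe1, whose chip 6 range did not clear the others.

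**Figure D4:**
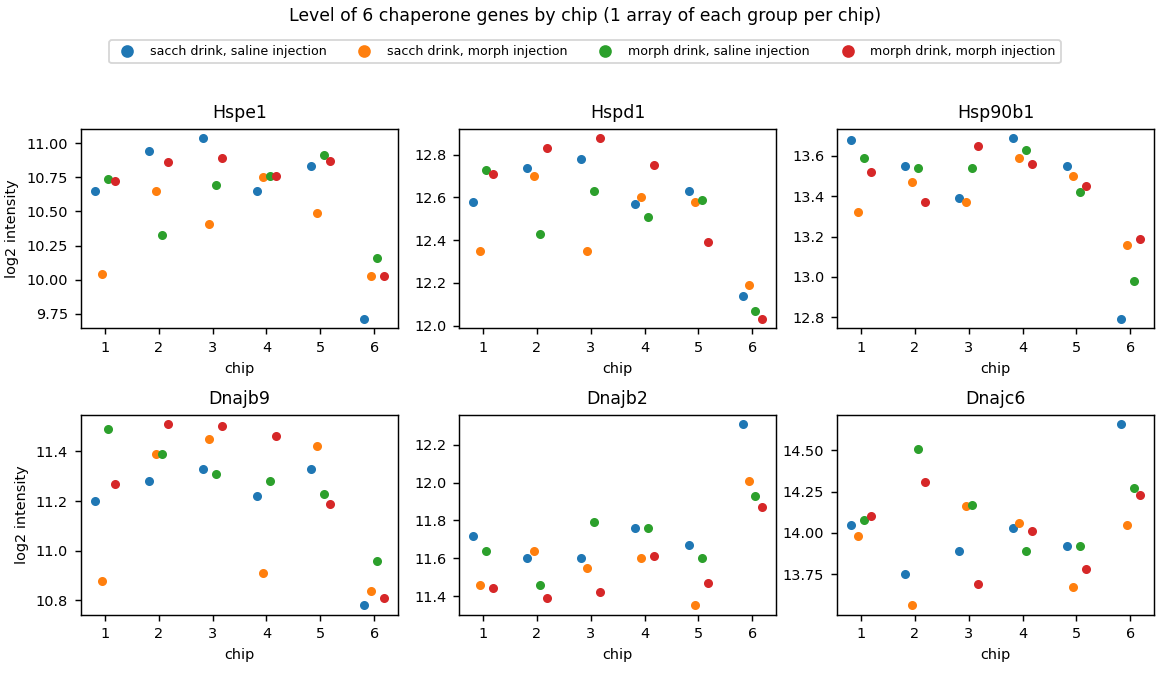
Log2 intensity of 6 chaperone genes on each of the 6 chips, with 1 point per array coloured by group. Chip 6 is lowest for Hspd1 and Hsp90b1 and highest for Dnajb2, in mice of all 4 groups.

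On replicates 31 and 32, the arrays with low medium spiny neuron genes, 5 of 71 members (7.04%) lay outside the range of the other 22 on the same side, beside 8.60% of all genes, and the part of the cell type markers in this was not tested. Hspa2, an HSP70 abundant in testis and brain, stood at 13.30 and 13.39 against 12.33 to 12.89, and Hspb8 at 11.59 and 11.56 against 10.74 to 11.54. Dnajc1 and Dnajc4 were also higher, and Bag5, a BAG protein that inhibits HSP70 refolding, was lower, at 11.31 and 11.29 against 11.44 to 11.85. Without these arrays 0 members passed in any comparison, and Hspb8 in morphine drinkers gave 0.30 in place of 0.26.

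Where a member had further probes above the filter, they were compared with the probe used. There were 38 such probes of 30 members. For the averaged injection 14 of 38 had the sign of the probe used, and in the other contrasts between 20 and 24 did. For the averaged injection the further probe of Hsp90aa1 gave -0.26 (SE 0.155) beside -0.13, and those of Hspa8 gave -0.14 (SE 0.0863) and 0.01 (SE 0.0894) beside -0.01.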

How the data were processed

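Per the labels, total RNA of the striatum of each mouse was made into biotinylated cRNA and hybridised to Illumina bead arrays. For each probe the authors deposited its intensity, linear and not normalized between arrays. A second deposited table holds log2 values, whose tool was not given in the sources used here, nor was any background subtraction. Raw median intensity ranged from 164 to 543 over 24 arrays.

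The deposited intensity values were corrected with normexp (offset 50), then log2-transformed and quantile-normalized with limma 3.58.1 (R 4.3.3). Of 45281 probes, 34885 had exactly 1 symbol in the platform annotation, and member symbols matched RefSeq (GRCm38.p6). For each of 19057 genes the probe with the highest mean of the deposited log2 values was used. Probes with a mean log2 intensity above the 40th percentile (7.05) were tested, which left 13748 genes. The number of arrays limits the precision, and the median SE of a difference between 2 groups was 0.142.

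Groups came from the labels' chronic and acute treatments. All 24 arrays entered 1 linear model (lmFit, eBayes) of group plus chip. Two-sided p-values took the Benjamini-Hochberg adjustment across all 13748 genes, separately for each comparison, and the threshold was 0.05. The labels call each array 1 sample and say nothing of litters or cages, so p-values measure the spread between these samples. Animal numbers differ between groups, so no number pairs mice, and the chip, with 1 array of each group, was the block. The fit was tested on simulated data. Alternatives covered background, scaling, the deposited log2 values, filter, probe choice, chip and position terms, array weights, the prior, and leaving out single arrays or chips. The permutation of pairs of genes and the test of each of 22499 probes were added after seeing the data.

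The members and lists were chosen with earlier results of these data known. Named members were those past the threshold, the 3 smallest p of each comparison, the extremes of each class in the averaged injection response, and a fixed set of well-known chaperones, 37 in all. Others, among them the members that stood apart on chips or arrays, were chosen after their values were seen. Python 3.11.15 with matplotlib 3.10.9 drew the figures.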

Additional observations from a re-analysis of the deposited data

Results flagged for a closer look

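Within the groups of 6 mice, 148 sets of values of the named members were checked for a highest or lowest mouse that stood far from its neighbours for the range of its group (Dixon's criterion at the 95% level). Chance gives about 1 such mouse in 20 groups, and 13 were found, in 11 genes, 10 of them on chip 6. The fit holds a chip term, which these values do not. In saccharin/saline, replicate 8 (chip 6) stood at 12.31 for Dnajb2 against 11.60 to 11.76 in the other mice, and at 14.66 for Dnajc6 against 13.75 to 14.05. The same mouse was low for Dnajb9 (10.78 against 11.20 to 11.33), Hsp90b1 (12.79 against 13.39 to 13.69), Hspd1 (12.14 against 12.57 to 12.78) and Hspe1 (9.71 against 10.65 to 11.04).

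The other 4 values of chip 6 were Bag6 at 11.49 in saccharin/morphine replicate 9 (10.80 to 11.03 in the others), Dnaja2 at 10.18 in morphine/saline replicate 41 (10.58 to 10.73), Hsp90b1 at 12.98 in that same mouse (13.42 to 13.63) and Hspe1 at 10.03 in morphine/morphine replicate 40 (10.72 to 10.89). On chip 2, Dnajb8 stood at 8.44 in saccharin/saline replicate 10 (6.76 to 7.36) and Dnajc24 at 9.58 in morphine/morphine replicate 31 (9.88 to 10.00). On chip 4, Hspbp1 stood at 10.26 in morphine/morphine replicate 35 (10.51 to 10.66).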

How the results depend on the processing

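Over 45 alternative settings, 24 of which left out 1 array and 6 a chip, the number of members past the threshold was recomputed 356 times and was 0 each time. The setting with each probe tested on its own, was added after seeing the data. The smallest adjusted p of any member was at its lowest 0.0794 for the injection in saccharin drinkers (without saccharin/saline replicate 2), 0.183 in morphine drinkers (array weights) and 0.119 averaged over drinks. It was never under 0.653 for a drink comparison or the interaction, nor under 0.308 for any difference. No paired analysis was possible because the animal numbers differ between groups, beyond the chip, which held 1 mouse of each group and was the block in the fit. Without the chip term the counts were also 0. Some averaged injection responses, none of which had passed the test, changed sign. Most were near 0, but Dnajb5 had 0.161 and Dnajb8 -0.176 in the analysis reported. With each probe of a gene averaged, Hspbap1 gave 0.058, Dnaja2 0.025, Dnajb5 -0.029, Hspa9 0.007 and Hspd1 0.091. With array weights Hspbp1 gave -0.020, Dnaja1 -0.062, Hspa1a 0.018, Hspa8 0.047 and Hsp90b1 0.038. With a common median Hspbp1 gave -0.008, Dnaja1 -0.011 and Hspa8 0.037, and with cyclic loess Hspa8 gave 0.030. Without both replicates 31 and 32 Hsp90b1 gave 0.002. Leaving out 1 array or chip gave ranges that span 0 for Hspbp1 (-0.024 to 0.066), Hspbap1 (-0.096 to 0.016), Dnaja1 (-0.084 to 0.143), Dnaja2 (-0.047 to 0.000), Dnajb8 (-0.350 to 0.049), Dnajb9 (-0.048 to 0.037), Bag3 (-0.011 to 0.067), Bag4 (-0.003 to 0.084), Hspa1a (-0.108 to 0.071), Hspa1b (-0.090 to 0.122), Hspa8 (-0.035 to 0.034), Hspa9 (-0.045 to 0.009), Hsp90b1 (-0.077 to 0.024) and Hspd1 (-0.042 to 0.029). The cause was not tested.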
